A study of Mus musculus with 4 samples.

Results

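The clustered protocadherins are cell surface adhesion proteins encoded by 3 neighbouring gene arrays, called alpha, beta and gamma, on mouse chromosome 18. Their RNA was examined in lung mesenchymal cells labelled as lacking Dnmt1, the maintenance DNA methyltransferase, and in wild-type cells. Members were taken by name from the count table, as genes called Pcdha, Pcdhac, Pcdhb, Pcdhga, Pcdhgb or Pcdhgc followed by a number. Pcdhac1, Pcdhga10 and another gene that is also named Pcdha11, all annotated in these arrays, are not analysed here. This rule used no measured value and found 55 of the 31247 genes, 12 in the alpha, 22 in the beta and 21 in the gamma cluster. All 4 samples carried the reporter PDGFRb-GFP, by which cells were sorted from lungs at postnatal day 7. The 2 wild-type (WT) samples have the genotype Wild type PDGFRb-GFP, and the 2 conditional knockout (CKO) samples carry PDGFRb-GFP, Tbx4-rtTA, Tet-O-Cre and Dnmt1-D/D. In the CKO animals rtTA driven by Tbx4 switches on Tet-O-Cre, so recombination depends on cells in which that driver is or was active, and the sources used here do not state when the inducer was given. The labels call the sorted cells myofibroblasts. The protocol speaks of 2 WT and 2 CKO lungs without saying whether litters were shared, so a p-value here reflects only the spread among the 4 libraries, which may be technical. Libraries are lettered in column order, which pairs nothing. The column names of WT B, CKO A and CKO B begin with a number that WT A lacks, and its meaning is not given in the sources used here. The fit without WT A is the one within that number.

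In neurons each cell uses a small and partly random choice of these genes, and the resulting combination of proteins serves as an identity tag in self-avoidance of dendrites and axons. Every alpha and gamma gene has its own promoter and a large variable first exon, which is spliced to constant exons shared by its cluster, whereas a beta gene is essentially a single exon. DNA methylation of the promoters and binding of CTCF with cohesin are known to govern which promoters are used. The C-type members, which lie at the ends of the alpha and gamma arrays, are known to follow a different rule of choice.

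Library depth lay between 23071657 and 26420648 counted reads, and levels are given as CPM, the reads of a gene scaled to a common library size by TMM. WT B had reads on 27643 genes and the others on 21883 to 22532. CKO A held reads of Y-linked genes, 2494 of them on Ddx3y, and the other libraries held 0. Dnmt1 had 144 and 115 CPM in the WT libraries (A and B throughout) against 78.1 and 29.5 in the CKO libraries, so CKO A was at 60.3% and CKO B at 22.8% of the WT mean (log2 change -1.27 ± 0.57 (SE, n = 2 per genotype), edgeR adjusted p = 0.310). Of 9 markers of the sorted mesenchyme, Acta2, Col1a1, Tbx4 and Pdgfrb were abundant in each library. Tagln was low, at a mean of 9.79 CPM in WT and 10.6 in CKO. edgeR and limma-voom called 0 of the 9, and DESeq2 called 2 higher and 4 lower. In edgeR 1 was higher and 4 were lower at an unadjusted p under 0.05. The 4 lower ones were Pdgfrb, the gene of the sorting reporter (506 and 476 CPM in WT, 373 and 317 in CKO, log2 -0.51 ± 0.13, edgeR adjusted p = 0.0546), Pdgfra (log2 -0.60 ± 0.15, edgeR adjusted p = 0.0526), Tbx4, the gene of the driver (log2 -0.59 ± 0.18, edgeR adjusted p = 0.0861), and Tgfbi (log2 -0.60 ± 0.22, edgeR adjusted p = 0.139). Col1a1 was the higher one in edgeR (log2 0.58 ± 0.25, adjusted p = 0.193), joined by Col1a2 in DESeq2. Their part in the protocadherin values was not tested. In bulk samples fewer cells of a type and less RNA per cell cannot be told apart.

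Several gamma genes near the start of their cluster were more abundant in the CKO libraries. Of the 55 members, 45 had enough reads to be tested, and 5 rose while 0 fell (edgeR quasi-likelihood test, adjusted p under 0.05 over the 15210 genes tested). The risers were Pcdhga2, Pcdhga3, Pcdhgb2 and Pcdhga7 of the gamma cluster and Pcdhb2 of the beta cluster. They made up 11.1% of the tested members, where 4.85% of all tested genes were called higher, 2.75% lower and 7.61% either way. At an unadjusted p under 0.05, 15 members were higher and 3 lower, against 13.1% and 12.1% of all tested genes. The log2 change was above 0 for 28 of the 45 (62.2%), against 49.1% of all tested genes, with a median of 0.36 where that of all tested genes was -0.01. Both CKO libraries lay above both WT libraries for 20 members and below them for 10. Over all tested genes the corresponding shares were 27.8% and 29.2%, or 57% together. The members share a locus and are not independent of each other. The authors' deposited table lists 6 members at an adjusted p under 0.05, all higher in mutant cells, the sixth being Pcdhgb4 with a log2 fold change of 1.03.

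The number of called members depended on single libraries. edgeR called 6 without WT A, 11 without CKO A and 5 without CKO B, of which 1, Pcdhgc5, was lower. Without WT B it called 0, with 9 higher and 3 lower at an unadjusted p under 0.05. The 5 called members had a positive log2 change in all 55 of their alternative values, the lowest being 0.88 (Pcdhga7 without CKO B) and the highest 2.00 (Pcdhga2 without CKO A). They were selected for their rise and had both CKO libraries above both WT libraries. The sign was therefore nearly fixed in advance, and only the size of the change could vary freely.

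**Figure D1:**
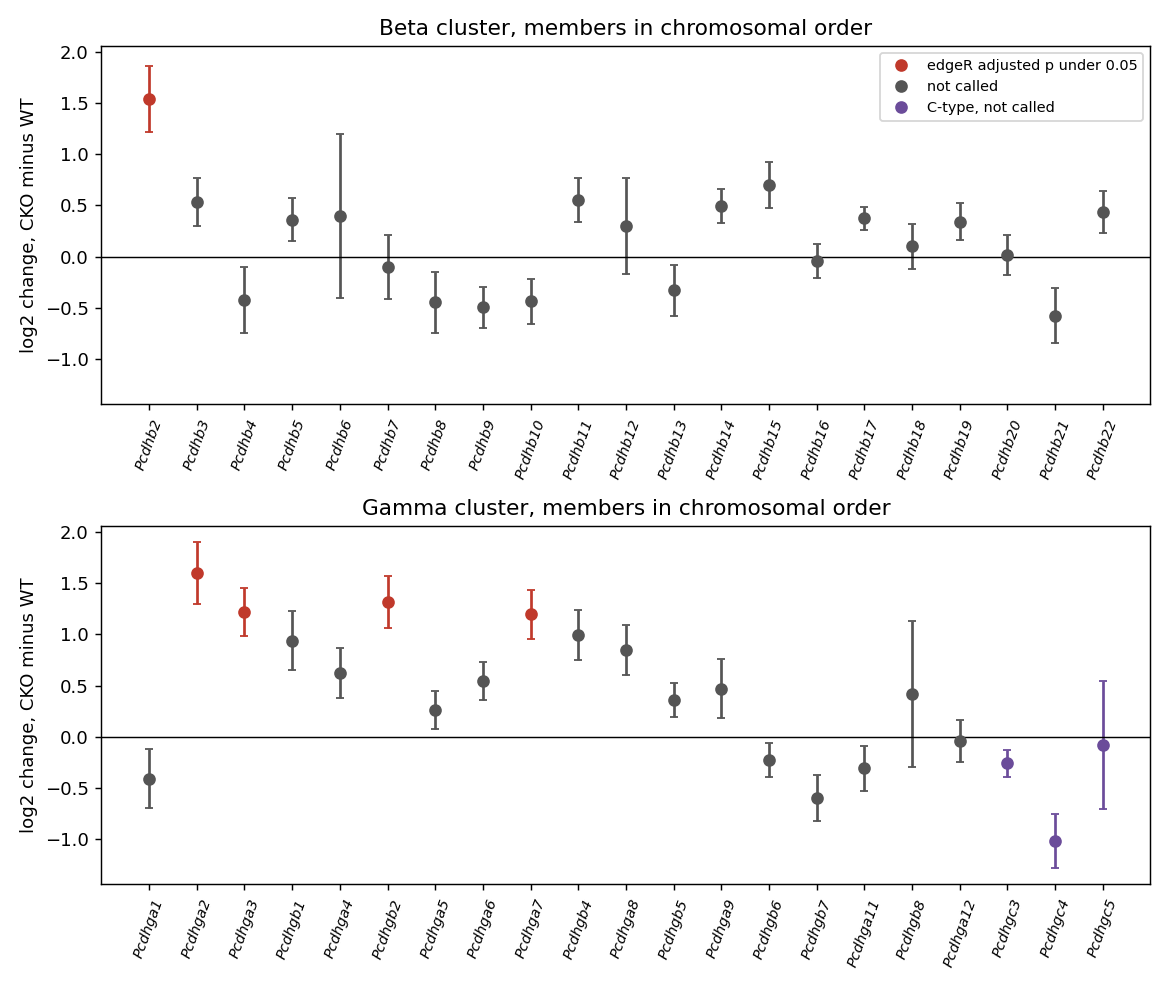
Fitted log2 change (CKO minus WT, vertical axis) with its standard error (bars) for tested beta (top) and gamma (bottom) members in their order along the chromosome, n = 2 libraries per genotype, with called genes in red and C-type genes in purple. The 4 called gamma genes lie in the first part of their cluster, and the C-type genes, at its end, lie below 0.

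The gamma cluster (chromosome 18, 37661793 to 37841873, GRCm38) held between 59.7% and 60.9% of the members' reads in each library. Its gamma-A and gamma-B genes alternate along much of the array and differ in their variable exons. Pcdhga2 (ENSMUSG00000103332, starting at 37668953) had the highest fitted change of the tested members. It had 5.61 and 6.48 CPM in WT and rose to 13.0 and 23.8 in CKO. The genotypes did not overlap, and CKO B was highest (3.03-fold higher, log2 1.60 ± 0.30 (SE), edgeR adjusted p = 0.0283).

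Pcdhga3, the next gene downstream (ENSMUSG00000104346, starting at 37674307), had 11.9 and 8.96 CPM in WT and rose to 19.4 in CKO A and 29.2 in CKO B, a 2.33-fold difference (log2 1.22 ± 0.24 (SE), edgeR adjusted p = 0.0278). Pcdhgb2 (ENSMUSG00000102748, starting at 37689828) went from 12.8 and 9.79 CPM to 21.6 and 34.6, 2.49-fold higher (log2 1.31 ± 0.26, edgeR adjusted p = 0.0327). Pcdhga7 (ENSMUSG00000103472, starting at 37714764) went from 9.12 and 6.85 CPM to 14.6 and 22.0, 2.29-fold higher (log2 1.1955 ± 0.24, edgeR adjusted p = 0.0290). In these 4 genes, and in Pcdhb2, CKO A lay above both WT libraries and CKO B above CKO A. CKO B lay above CKO A in 36 of the 45 tested members, 17 of 21 gamma and 16 of 21 beta genes among them, so most uncalled members had this order too. The share of all tested genes with CKO B above CKO A was not counted. The order therefore cannot be read as particular to the members. CKO B was also the library with the least Dnmt1 RNA, and whether these orders are related was not tested.

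Leaving out WT A ended the call of Pcdhga2 (log2 1.51, edgeR adjusted p = 0.109), and leaving out WT B ended the calls of all 4 genes (log2 1.01 to 1.72, edgeR adjusted p from 0.134 to 0.159). Without CKO B all 4 were called, with changes of 0.88 to 1.11.

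**Figure D2:**
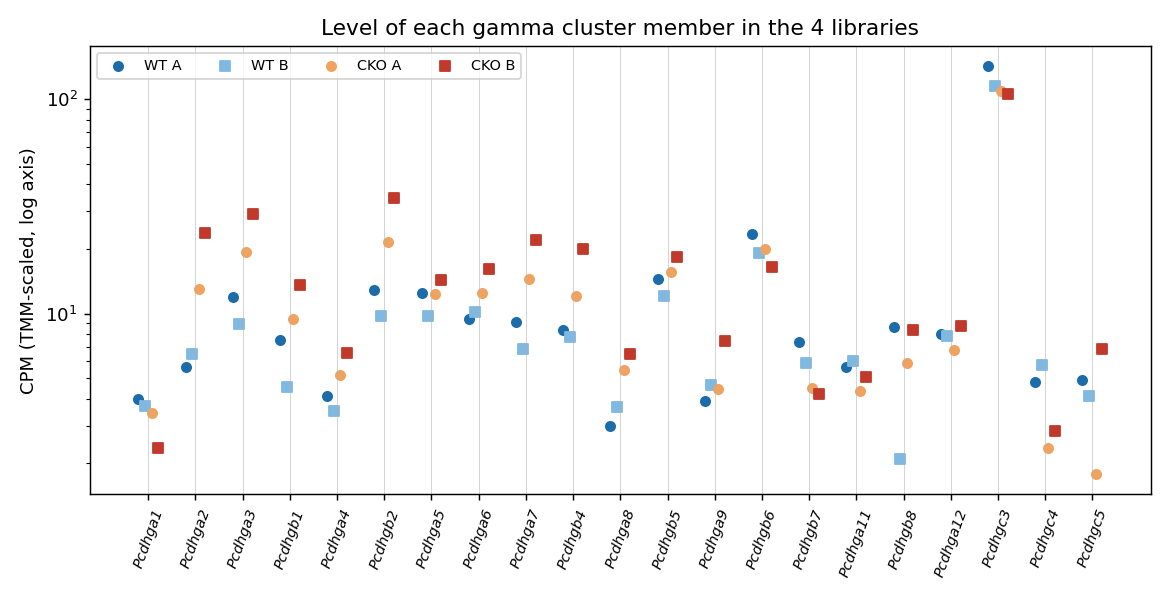
Level of the 21 gamma cluster members in each library, as CPM on a logarithmic axis, with members in chromosomal order and 1 point per library. Pcdhgc3 lies above 100 CPM in all 4 libraries. CKO B is the highest library for each gene from Pcdhga2 to Pcdhga9, called or not, and for Pcdhga12 and Pcdhgc5.

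Genes lying between the called ones had values in the same direction without passing the test. Pcdhgb1 had 7.50 and 4.56 CPM in WT and 9.47 and 13.6 in CKO (log2 0.94 ± 0.29 (SE), edgeR adjusted p = 0.0947). Pcdhga4 and Pcdhga6 had log2 changes of 0.62 ± 0.24 and 0.54 ± 0.18 (edgeR adjusted p = 0.162 and 0.117). Pcdhga5, in the same stretch, overlapped between genotypes, at 12.5 and 9.71 CPM in WT and 12.3 and 14.3 in CKO.

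Just past Pcdhga7, Pcdhgb4 had 8.38 and 7.76 CPM in WT and 12.1 and 20.1 in CKO and missed the threshold narrowly (log2 0.99 ± 0.25 (SE), edgeR adjusted p = 0.0545). It was called by DESeq2 (log2 1.01, adjusted p = 0.0120) and by edgeR with library size scaling (adjusted p = 0.0442). Pcdhga8 had 2.98 and 3.65 CPM in WT and 5.47 and 6.51 in CKO (log2 0.85 ± 0.25, edgeR adjusted p = 0.0765). Neither gene overlapped between genotypes.

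Toward the end of the run the differences were smaller or of the other sign. Pcdhgb5 had a log2 change of 0.36 ± 0.17, Pcdhga9 of 0.47 ± 0.29 and Pcdhga11 of -0.31 ± 0.22, none of them called. Pcdhgb6, the most abundant gamma-B gene of the WT cells, had 23.5 and 19.2 CPM in WT and 20.1 and 16.4 in CKO, which overlap (log2 -0.22 ± 0.17, edgeR adjusted p = 0.446). Pcdhgb7 had 7.37 and 5.87 CPM in WT against 4.49 and 4.22 in CKO (log2 -0.60 ± 0.23, edgeR adjusted p = 0.146). Pcdhga12, the last of the 18 gamma-A and gamma-B genes, had 8.03 and 7.87 CPM against 6.73 and 8.75 (log2 -0.04 ± 0.20).

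Counts by position summarise the same log2 changes and calls and are not separate evidence. The split into 9 and 9 genes falls just past Pcdhga7, the last called gene. Of the 9 gamma-A and gamma-B genes nearest the start of the cluster, 4 were called and 8 had a log2 change above 0, with a median of 0.94. Of the 9 nearest its end edgeR called 0 (2 higher and 1 lower at an unadjusted p under 0.05), DESeq2 called 1, Pcdhgb4, and limma-voom 0, and 5 lay above 0 with a median of 0.36. Spearman's rank correlation between chromosomal order and log2 change was -0.53 over the 18 genes, a description only, since the genes share libraries and a locus. It was -0.34 without WT A. The first gene of the array, Pcdhga1, went against this order, with 3.99 and 3.73 CPM in WT and 3.42 and 2.37 in CKO (log2 -0.41 ± 0.29, edgeR adjusted p = 0.424).

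Pcdhgb8, annotated as a polymorphic pseudogene, was unequal between the WT libraries, with 8.64 CPM in WT A and 2.11 in WT B, against 5.89 and 8.36 in CKO. Its log2 change was 0.42 ± 0.71 with all libraries, 1.76 without WT A (edgeR adjusted p = 0.0285) and -0.27 without WT B. A single library thus set its direction.

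The 4 C-type genes measured all had log2 changes below 0. Pcdhgc3 (ENSMUSG00000102918, starting at 37806364) was the most abundant member in each library, with 142 and 115 CPM in WT and 109 and 105 in CKO. The CKO values lay just under the lower WT value (log2 -0.26 ± 0.13 (SE), edgeR adjusted p = 0.256). Pcdhgc4, whose protein is known to be needed for neuron survival, had 4.78 and 5.76 CPM in WT and 2.36 and 2.84 in CKO. That difference missed the threshold (log2 -1.02 ± 0.26, edgeR adjusted p = 0.0548) and passed with library size scaling (-1.05, edgeR adjusted p = 0.0475).

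Pcdhgc5 split the CKO libraries, with 1.79 CPM in CKO A and 6.81 in CKO B around WT values of 4.91 and 4.14 (log2 -0.08 ± 0.62). Without CKO B it was called lower (-1.33, edgeR adjusted p = 0.0482), and without CKO A its change was 0.62 and not called. Pcdhac2, a C-type gene of the alpha cluster, had 45 and 31 reads in WT and 25 and 41 in CKO. edgeR, DESeq2 and limma-voom called 0 of these 4 C-type genes, and in edgeR 0 were higher and 1 lower at an unadjusted p under 0.05. With 4.85% of all tested genes called higher and 2.75% lower, 0 of 4 is near the share over all genes.

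The make-up of gamma cluster RNA can be compared within each library without any scaling between libraries. For each read of a C-type gamma gene, the WT libraries had 1.05 and 1.06 reads of gamma-A and gamma-B genes, and the CKO libraries 1.68 and 2.24. The WT libraries were close to each other, and both CKO libraries lay above them. No test was made of this ratio, since it is a score over members. Pcdhgc3 alone took 45.6% and 44.6% of gamma cluster reads in WT, 36.0% in CKO A and 28.2% in CKO B.

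The 4 called genes took 12.7% and 12.4% of gamma cluster reads in WT, 22.5% in CKO A and 29.4% in CKO B. They were chosen for their rise, so this share had to differ. The other gamma-A and gamma-B genes together took 38.6% and 39.1% in WT and 40.1% and 39.8% in CKO. The effective number of gamma members, the exponential of the Shannon entropy of their read shares, was 9.45 and 9.75 in WT, 11.5 in CKO A and 13.3 in CKO B. The beta cluster did not have that order, with 16.8 and 16.1 in WT and 15.9 and 15.3 in CKO. Nor did the gamma-A and gamma-B genes taken without the C-type genes, with 15.8 and 15.9 in WT and 15.5 and 14.9 in CKO. The number for the whole gamma cluster depends on the share of Pcdhgc3 and on the 4 genes chosen for their rise.

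**Figure D3:**
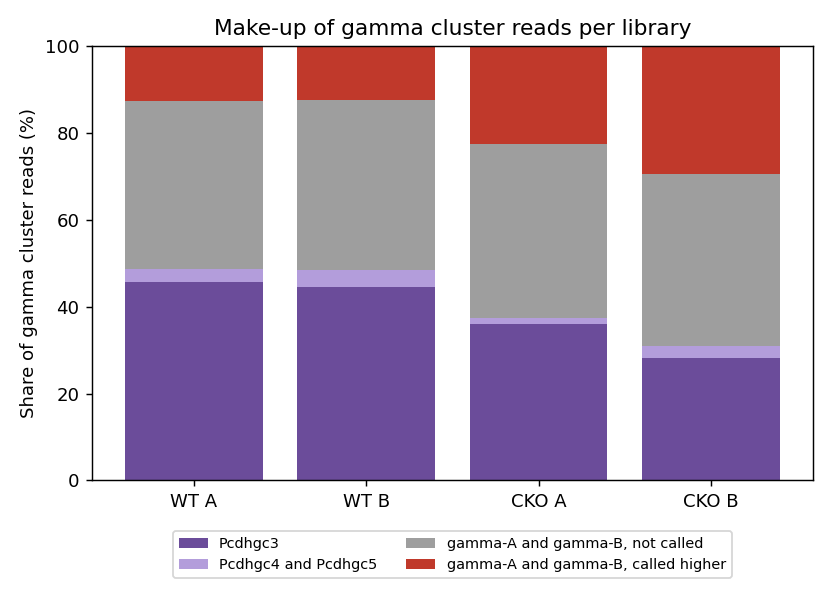
Share of gamma cluster reads (vertical axis, percent) in each library on Pcdhgc3, on Pcdhgc4 with Pcdhgc5, on the 4 called genes and on the other gamma-A and gamma-B genes. The Pcdhgc3 share is 45.6% in WT A and 28.2% in CKO B, while the other gamma-A and gamma-B genes lie between 38.6% and 40.1%.

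Summed levels, taken from the same reads, showed the same division. Gamma-A and gamma-B genes together had 160 and 133 CPM in WT and 191 and 258 in CKO, so the genotypes did not overlap. The gamma C-type genes together had 152 and 125 CPM in WT and 113 and 115 in CKO. The whole gamma cluster did overlap, with 312 and 258 CPM in WT and 304 and 373 in CKO.

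Levels of different genes were compared per kilobase of exon that no other gene on the same strand shares, since constant exons cannot be assigned to 1 member. On this scale Pcdhgc3 led in WT with 38.04 ± 5.65 CPM per kb (SD, n = 2), followed by Pcdhgb6 with 8.32 ± 1.18 and Pcdhb17 with 6.52 ± 0.432. Pcdhga5, Pcdhgb2 and Pcdhga3 came next with 4.36 ± 0.775, 4.09 ± 0.773 and 4.02 ± 0.808 CPM per kb and did not differ beyond their spread. In CKO Pcdhgc3 again led, with 31.7 ± 0.852 CPM per kb. Pcdhgb2 with 10.2 ± 3.33, Pcdhga3 with 9.34 ± 2.66 and Pcdhb17 with 8.44 ± 0.342 followed, within each other's spread. The antisense gene BC037039 overlaps Pcdhgc3, and counting both strands would leave 1821 unshared bases in place of 3380, but BC037039 held only 12 to 40 reads per library.

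The beta cluster (chromosome 18, 37264938 to 37524479) held 38.2% to 39.7% of the members' reads, and 1 of its genes was called. Pcdhb2 (ENSMUSG00000051599, starting at 37294812) had 2.28 and 1.92 CPM in WT and rose to 4.56 in CKO A and 7.67 in CKO B (2.91-fold, log2 1.54 ± 0.32 (SE), edgeR adjusted p = 0.0283). The call was lost in limma-voom (log2 1.48, adjusted p = 0.0625) and in edgeR without WT A, WT B or CKO B (log2 1.68, 1.43 and 1.13, adjusted p = 0.0600, 0.153 and 0.0743). That 1 gene is 4.76% of the 21 tested beta members, near the 4.85% of all tested genes called higher.

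The other beta genes were spread around 0. Of the 21 tested, 13 had a log2 change above 0 and 8 below, with a median of 0.30. Both CKO libraries lay above both WT libraries for 9 of them (42.9%, against 27.8% of all tested genes) and below for 5. Spearman's rank correlation of order with log2 change was -0.11, and 0.07 without WT B. Pcdhb17, the beta gene with the most CPM, had 31.8 and 29.0 in WT and 38.2 and 40.5 in CKO (log2 0.37 ± 0.12 (SE), edgeR adjusted p = 0.0917).

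Pcdhb15 had 4.08 and 3.54 CPM in WT and 6.24 and 6.16 in CKO (log2 0.70 ± 0.22 (SE), edgeR adjusted p = 0.0975). Pcdhb11, Pcdhb3, Pcdhb14, Pcdhb22, Pcdhb5 and Pcdhb19 likewise had both CKO libraries above both WT libraries, with log2 changes from 0.34 to 0.56 that were not called. Pcdhb12, Pcdhb16, Pcdhb18 and Pcdhb20 overlapped between genotypes, with changes from -0.04 to 0.30.

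Below 0 lay the neighbours Pcdhb8, Pcdhb9 and Pcdhb10, with log2 changes of -0.45 ± 0.30, -0.50 ± 0.20 and -0.44 ± 0.22 (SE, edgeR adjusted p = 0.392, 0.172 and 0.263). Pcdhb21 had the lowest beta value, 6.84 and 4.56 CPM in WT against 3.65 and 3.96 in CKO (log2 -0.58 ± 0.27, edgeR adjusted p = 0.225). Pcdhb4 and Pcdhb13 had changes of -0.42 and -0.33, with both CKO libraries below both WT libraries. edgeR, DESeq2 and limma-voom called 0 beta genes lower, and in edgeR 1, Pcdhb9, was lower at an unadjusted p under 0.05.

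Pcdhb6 was low in a single library, with 178 reads in WT A, 40 in WT B and 184 and 120 in CKO. Its log2 change was 0.40 ± 0.80 with all libraries, 2.02 without WT A (edgeR adjusted p = 0.0193) and -0.35 without WT B. WT B was the low library in Pcdhgb8 too, and in Pcdhb7, which had 9.65 CPM in WT A, 4.93 in WT B and 7.03 and 6.55 in CKO. Pcdhb1, the first gene of the cluster, had at most 2 reads in a library and was not tested.

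**Figure D4:**
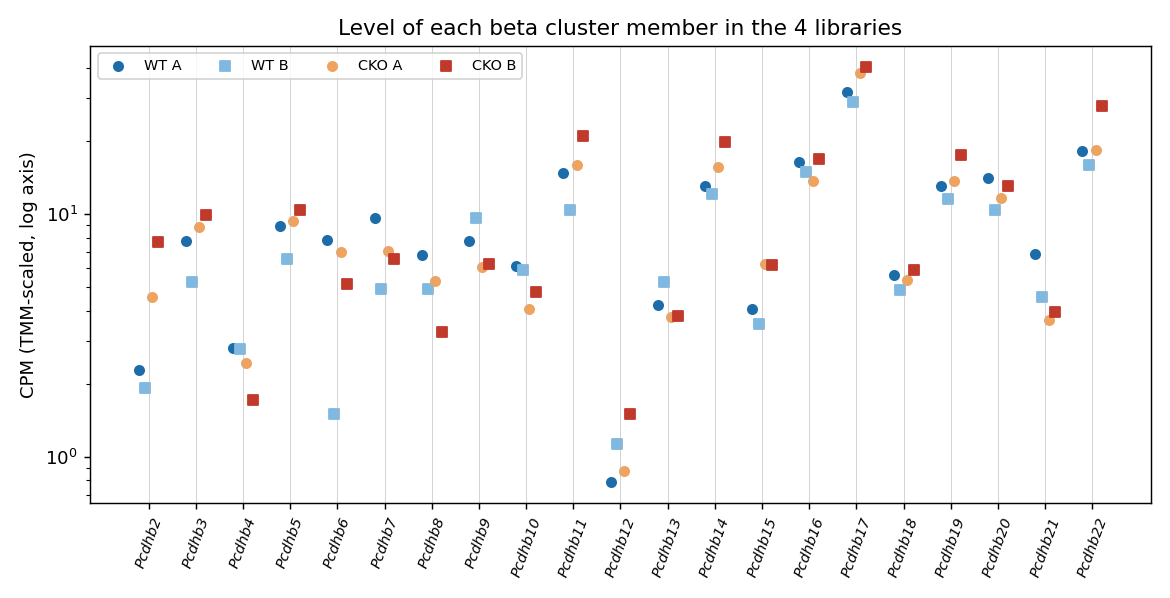
Level of beta cluster members in each library, as CPM on a logarithmic axis in chromosomal order, 1 point per library. Pcdhb2 has both CKO points above both WT points, and Pcdhb6 has WT B, at 1.51 CPM, below the other libraries.

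The alpha cluster (chromosome 18, 36930184 to 37187661) had few reads in the sorted cells, 74 and 56 in WT and 77 and 137 in CKO, or at most 0.965% of the members' reads. Of its 12 members, 9 were too low to be tested. Without Pcdhac2 the cluster had 29 and 25 reads in WT, 52 in CKO A and 96 in CKO B. Both CKO libraries lay above WT in this sum, which no test was made of.

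Pcdha5 had 9 and 10 reads in WT and 20 and 30 in CKO (log2 1.40 ± 0.53 (SE), edgeR adjusted p = 0.149). Pcdha11 (ENSMUSG00000007440) had 11 and 6 reads in WT and 11 and 29 in CKO (log2 1.23 ± 0.70, edgeR adjusted p = 0.321). Neither passed, and Pcdha11 overlapped between genotypes.

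Pcdha8 had 0 reads in both WT libraries, 5 in CKO A and 12 in CKO B. The ratio of CKO to WT had an exact 95% lower limit of 4.03 for counting error only, and the CKO level was 5.53 times a floor of 3 reads summed over WT. With no filter on low counts edgeR called it among 14 members (13 higher and 1 lower, Pcdhgc4). Pcdha12 had 4 and 2 reads in WT and 7 and 11 in CKO, a ratio of 2.93 (exact 95% interval 1.11 to 9.01, counting error only), and Pcdha9 had 4 and 4 against 8 and 8. Another 6 alpha genes had at most 2 reads in any library, which is too few to show a difference at this depth.

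**Figure D5:**
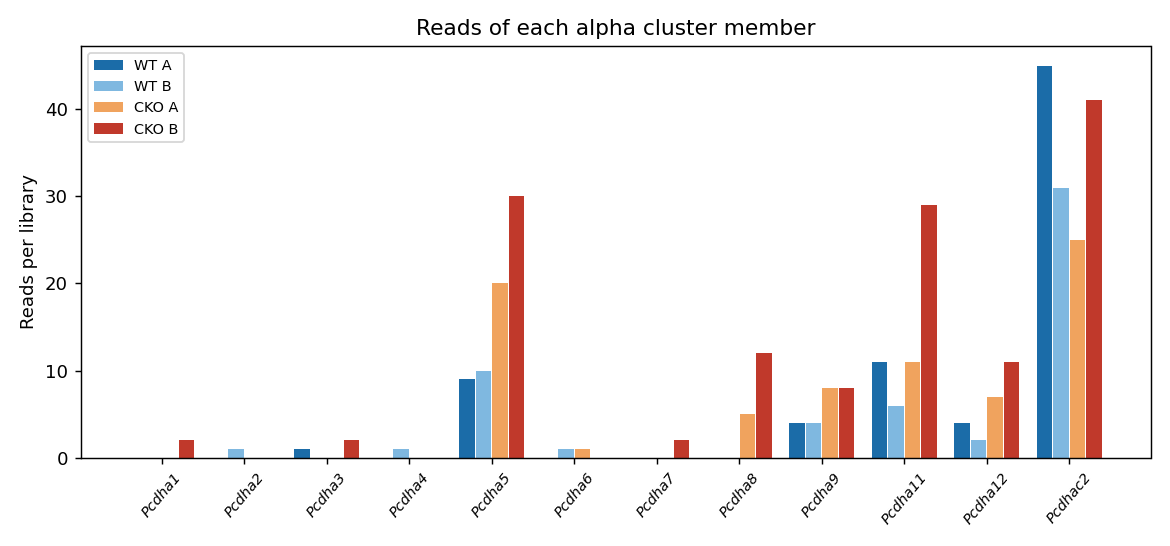
Reads of the 12 alpha cluster members in each library (vertical axis, reads), in chromosomal order. Pcdhac2 has 25 to 45 reads per library, and Pcdha8 has reads in CKO A and CKO B only.

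Detection differed little between libraries. At least 10 reads were found for 44 members in each WT library, 45 in CKO A and 47 in CKO B. All 21 gamma members and 21 of the 22 beta members reached this level in each library.

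Sequence similarity limits how surely reads are assigned to a member. Of the 50-base windows in the first 2000 bases of a member's transcript, the median share found in no other gene was 99.6% for gamma-A, 92.6% for gamma-B, 94.7% for beta and 81.2% for alpha genes, and 100% for the C-type genes. It was 99.6% for Pcdhga2 and Pcdhga3, 100% for Pcdhga7, 99.5% for Pcdhb2 and 89.8% for Pcdhgb2. Counts are most uncertain for Pcdhga4, at 49.3%, and for Pcdha4, at 4.77%.

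Protocadherins outside the clusters, which are encoded by single genes, did not pass. Of 12, 11 were tested, and edgeR, DESeq2 and limma-voom called 0, with 3 higher and 1 lower at an unadjusted p under 0.05 in edgeR and a median log2 change of 0.06. Pcdh1 had 228 and 273 reads in WT and 430 and 332 in CKO (log2 0.60 ± 0.16 (SE), edgeR adjusted p = 0.0638). Pcdh15, known as a part of the hair cell tip link, had a log2 change of -1.35 ± 0.39 (edgeR adjusted p = 0.0791). Pcdh19 and Pcdh11x, both X-linked, had changes of 1.23 and 1.22 (edgeR adjusted p = 0.123 and 0.137), and CKO A was the library with Y-linked reads.

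Of 13 tested classical cadherins edgeR and limma-voom called 1 higher and 1 lower and DESeq2 2 higher and 1 lower, with 3 higher and 2 lower at an unadjusted p under 0.05 in edgeR. Cdh4 fell from 108 and 91.6 CPM in WT to 51.1 and 62.3 in CKO (log2 -0.82 ± 0.14 (SE), edgeR adjusted p = 0.0160). Cdh19, also a Schwann cell marker, rose from 4 and 0 reads in WT to 151 and 339 in CKO (edgeR adjusted p = 0.0240). Cdh18 and Cdh22 did not pass in edgeR (adjusted p = 0.0870 and 0.0874), and DESeq2 called Cdh22 (log2 1.44, adjusted p = 0.00240).

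Genes known to act on promoter choice or methylation in the clusters did not pass in edgeR. edgeR and limma-voom called 0 of 20 and DESeq2 called 2 lower, Tet1 and Tet3, with 0 higher and 3 lower at an unadjusted p under 0.05 in edgeR. Dnmt1 itself is among these 20 and was not called (log2 -1.27 ± 0.57, edgeR adjusted p = 0.310). The lack of a call therefore does not show an unchanged level. Ctcf had a log2 change of -0.16 ± 0.11, Smchd1, a chromatin repressor of these clusters, of -0.08 ± 0.11, and the de novo methyltransferase Dnmt3b of -0.07 ± 0.19. The lowest p-values were those of the demethylase genes Tet1 (log2 -0.70 ± 0.19, edgeR adjusted p = 0.0673) and Tet3 (log2 -0.54 ± 0.17, edgeR adjusted p = 0.0952), followed by Setdb1 and Zfp143.

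Among 23 intracellular partners and shedding enzymes edgeR, DESeq2 and limma-voom called 0, with 1 higher and 2 lower at an unadjusted p under 0.05 in edgeR. Ptk2b, which encodes a kinase of the focal adhesion kinase family that binds protocadherin tails, had 1.67 and 2.75 CPM in WT and 5.28 and 4.78 in CKO (log2 1.18 ± 0.31 (SE), edgeR adjusted p = 0.0591). Wasf3, of the WAVE actin regulatory complex, had a change of -0.59 ± 0.16 (edgeR adjusted p = 0.0638). Nlgn1, the gene of the synaptic adhesion protein neuroligin, had one of -0.91 ± 0.30 (edgeR adjusted p = 0.107).

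Of 20 tested genes beside or between the clusters, edgeR and limma-voom called 1 higher and DESeq2 2 higher and 1 lower, with 3 higher and 3 lower at an unadjusted p under 0.05 in edgeR. Over all tested genes edgeR called 4.85% higher and 2.75% lower, and 13.1% and 12.1% passed at an unadjusted p under 0.05. The edgeR counts of these neighbours are near those shares. Dnd1, a germ cell RNA-binding protein gene upstream of the alpha cluster, was called by all 3 tools and rose from 50 and 51 reads in WT to 165 and 168 in CKO (log2 1.71 ± 0.25 (SE), edgeR adjusted p = 0.00869). Taf7, a TFIID subunit gene between the beta and gamma clusters, had 166 and 250 reads in WT and 321 and 394 in CKO (log2 0.80 ± 0.22, edgeR adjusted p = 0.0670, DESeq2 adjusted p = 0.0491). Arap3, the gene DESeq2 called lower, had a change of -0.68 ± 0.22 (edgeR adjusted p = 0.123), and Tmco6 one of -0.81 ± 0.25 (edgeR adjusted p = 0.0864). Diaph1, just past the gamma cluster, had a change of 0.07 ± 0.11, and the median of these neighbours was 0.03.

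Markers of other cells were measured beside the members. The 12 neuron markers summed to 22.3 and 21.3 CPM in WT and 32.9 and 29.3 in CKO. Of the 8 tested, Tubb3 rose (log2 3.30 ± 0.45 (SE), edgeR adjusted p = 0.00792) and Gap43 fell (-1.75 ± 0.33, edgeR adjusted p = 0.0202). The neuron-defining Rbfox3 had 3 and 8 reads in WT and 26 and 8 in CKO. The 7 neuroendocrine markers summed to at most 1.64 CPM and were too low to be tested.

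Schwann cell markers, 7 of 8 of them in the table, summed to 26.9 and 33.3 CPM in WT and 60.0 and 68.6 in CKO. Of the 5 tested, S100b (log2 0.79 ± 0.13 (SE), edgeR adjusted p = 0.0141) and Cdh19 rose. Their defining gene Sox10 had 0 reads in WT and 5 and 3 in CKO. Leukocyte markers summed to 34.2 and 44.7 CPM in WT and 75.2 and 49.4 in CKO, with Cd74, Fcer1g, Cd14 and Laptm5 called higher of 8 tested. The rest were not called and went both ways. Ptprc (log2 0.77 ± 0.41, edgeR adjusted p = 0.280) and Lyz2 (0.24 ± 0.61) lay above 0, and Cd68 (-0.23 ± 0.19) and Cd79a (-0.85 ± 0.48) below.

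Endothelial markers summed to 75.8 and 110 CPM in WT and 160 and 88.0 in CKO, and epithelial markers to 58.0 and 173 in WT and 141 and 77.4 in CKO. In edgeR, DESeq2 and limma-voom 0 of 7 endothelial and 0 of 8 epithelial markers were called, with 1 endothelial marker, Tek, higher at an unadjusted p under 0.05 in edgeR. The neuron, leukocyte, endothelial and epithelial sums were higher in CKO A than in CKO B, whereas the 5 called protocadherins and the Schwann cell sum were higher in CKO B. The part of these cells in the protocadherin values was not tested.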

How the data were processed

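Raw counts of reads per gene, from 2 WT and 2 CKO libraries, were used as the authors deposited them. The submitters' processing notes name STAR, Trimmomatic 0.36, cutadapt 2.5, FastQC 0.11.8 and edgeR 3.28.1, and the build GRCm38.p6. How reads were counted, and whether by strand, is not given in the sources used here. The authors' deposited log2 fold changes and p-values are quoted only where named. Another 4 columns of per-sample values were not used. The deposited gene length, another unit, exceeded 1.2 times the union of annotated exons for 17 of the 55 members and was not used for levels. The count columns say Control or Mutant, taken as WT and CKO, with no replicate number.

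Genes were kept by filterByExpr (minimum count 10), scaled by TMM and tested with edgeR 4.0.16 in R 4.3.3 (glmQLFit and glmQLFTest, robust), with Benjamini-Hochberg adjustment over 15210 genes. Standard errors are the log2 change over the root of the F statistic. The test was checked on simulated counts of 15210 genes. It called 52 of 100 genes changed 2-fold, 89 of 100 changed 4-fold and 23 of 15010 unchanged genes. A gene that is not called here may therefore still have changed, and a called gene may be a false call. Alternatives were DESeq2 1.42.0, limma-voom (limma 3.58.1), RLE factors, library size alone, other filters, robust estimation off and leaving out each library. Exons and transcripts came from GENCODE mouse release 21 on GRCm38, which matched 55 of 55 members. Promoter sequences are not used here. The members, lists and tests were chosen with earlier results of these data known. Each member is accounted for. Of other lists up to 4 tested genes with the lowest p and genes behind counts of 5 or fewer are named, and further examples were chosen after their values were seen. Intervals and floors cover counting error only, since PCR copies are not independent molecules.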

Additional observations from a re-analysis of the deposited data

How the results depend on the processing

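No paired analysis was possible because the count columns carry no replicate number, and the number that opens the names of WT B, CKO A and CKO B leaves 1 WT library within it. The count of 5 called members was 4 to 7 under RLE factors, library size alone, DESeq2, limma-voom, a mean CPM of at least 1 and robust estimation off, 14 with no filter on low counts, and 0 to 11 on leaving out single libraries. Over all genes 1157 were called, 2459 with no filter and 339 to 1842 on leaving out libraries. For gamma-A and gamma-B genes the 4 calls became 8 with no filter and 0 to 8 on leaving out libraries. For beta genes the 1 call became 0 in limma-voom, 4 with no filter and 0 to 3 on leaving out libraries. Spearman's rank correlation of log2 change with position ran from -0.633 to -0.344 for gamma and from -0.244 to 0.0727 for beta on leaving out libraries. Of 493 alternative log2 changes, 15 over 9 uncalled members changed sign. These were Pcdhb20 with library size alone (-0.00995), Pcdhb7 in limma-voom (0.00679) and, on leaving out libraries, Pcdhac2 (-0.71 to 0.22), Pcdhb6 (-0.35 to 2.02), Pcdhb7 (-0.50 to 0.47), Pcdhb12 (-0.13 to 0.67), Pcdhb16 (-0.19 to 0.13), Pcdhb20 (-0.18 to 0.26), Pcdhgb8 (-0.27 to 1.76), Pcdhga12 (-0.23 to 0.17) and Pcdhgc5 (-1.33 to 0.62). The cause was not tested. Few reads limit what can be said of the alpha cluster.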
